A study of Mus musculus with 6 samples.

Results

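The genes described here build and cap the sugar chains of mucins. They are 45 enzymes, chaperones and transporters of mucin-type O-glycosylation, chosen by name and grouped by the step they serve, out of 46078 genes in the count table. Of the 45, 42 had a mean of at least 0.5 CPM (reads of a gene scaled to all reads on genes) over all libraries, and the same 42 entered the test over 16757 genes. RNA came from cells that an EDTA and DTT wash releases from the colon of unchallenged mice aged 2 months, with 3 libraries labelled wild type and 3 labelled Lingo2-/-. Lingo2 encodes a leucine-rich repeat membrane protein, and the comparison asks which transcripts differ when it is disrupted. The allele, strain and sex of the mice are not given in the sources used for this text. The labels do not say that each library came from its own animal, so a p-value reflects only how far these libraries spread, which may be technical.

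Mucin-type O-glycosylation starts in the Golgi when a GalNAc sugar is joined to a serine or threonine. The GalNAc is then extended into one of several core structures, the cores are lengthened and branched, and the chains end in sialic acid, fucose, GalNAc or sulfate. In the colon these chains make up most of the mass of Muc2, the gel-forming mucin of goblet cells, and they also cover the membrane mucins of absorptive cells. Core 3 chains, made by B3gnt6, are characteristic of the colon, and core 1 chains, made by C1galt1 with its chaperone C1galt1c1 (Cosmc), are needed for an intact mucus layer. Capping with sialic acid or fucose sets what bacteria and lectins can bind or digest.

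Wild type libraries held 25010618 to 28029583 reads on genes, against 7060769 to 13047682 in mutant libraries, so low genes were measured less precisely in the mutant. Mitochondrial genes took 45.3% to 48.4% of these reads in wild type, against 35.7% to 39.8% in the mutant. Lingo2 itself, by replicate, was counted at 0, 7 and 0 reads for wild type against 1, 1 and 0 for mutant libraries, too few for a test or for a check of the labels. Epcam, an epithelial surface protein, was at 728 ± 103 CPM in wild type, against 686 ± 65.6 CPM in mutant libraries (mean ± SD, n = 3, as throughout). Muc2 stood at 7233 ± 458 and 7474 ± 866 CPM (log2 fold change 0.05 ± 0.16, SE; edgeR adjusted p = 0.905). Of the 12 listed markers of T cells and intraepithelial lymphocytes all 12 fell, with a summed level of 451 to 538 CPM in wild type, against 188 to 218 CPM in mutant libraries. Of 16 goblet and secretory markers 5 rose, Spdef among them, 11 were not called, and 3 had fitted values below 0. The summed level of the 16 was 13942 to 16756 CPM in wild type, against 16744 to 23295 CPM in mutant libraries. Fcgbp (2749 ± 972 and 4545 ± 965 CPM) and Clca1 (1925 ± 764 and 4211 ± 1492 CPM) weigh on this sum and were not called. Each stands at a higher level than any of the 5. None of the 14 absorptive colonocyte markers passed, and all 14 had fitted values below 0 (median −0.29). In bulk RNA, fewer cells of a type and less RNA per cell cannot be told apart.

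Most of the O-glycosylation genes did not differ between the genotypes by the test. St6galnac2, which joins sialic acid to the GalNAc at the root of the chain, rose, while Gcnt1, the core 2 branching enzyme, and B3galt5, which ends chains with the galactose linkage of type 1 chains, fell. These 3 of 42 tested members are 7.14%, against 2.57% of all 16757 tested genes, where a call means a Benjamini-Hochberg adjusted p under 0.05 by the quasi-likelihood test of edgeR. Across all genes 1.04% were called higher and 1.52% lower. Without the adjustment, 10 members were higher and 3 lower at p under 0.05, which is 23.8% and 7.14% of the members beside 9.01% and 9.64% of all tested genes. The median log2 fold change of the 42 members was 0.12, beside 0.001 for all tested genes. Fitted values lay above 0 in 26 of the 42, beside 8403 of all 16757 tested genes.

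Single libraries weighed on these counts. Wild type replicate 1 had the highest value of its genotype in 24 of 42 members (57.1%, beside 35.5% of all tested genes), and mutant replicate 3 in 26 of 42 (61.9%, beside 33.0%). Without mutant replicate 3 the median of the members was 0.02, 23 had fitted values above 0, and 3 instead of 10 were higher at an unadjusted p under 0.05. That number was 5 without wild type replicate 2 or 3, 6 without mutant replicate 2, 10 without mutant replicate 1 and 13 without wild type replicate 1. Calls over all genes moved as well, from 430 to 180 without mutant replicate 3 and to 174 to 674 without another library (edgeR adjusted p under 0.05). The share of all genes at an unadjusted p under 0.05 was not computed with libraries left out, so these member counts have no background beside them. The authors' deposited table, which holds 41 of the members, has 5 of them (12.2%) at an adjusted p under 0.05, beside 4.71% of its 14338 rows. These 5 are St6galnac2, Gcnt1, B3galt5, St3gal6 and B3gnt5.

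**Figure D1:**
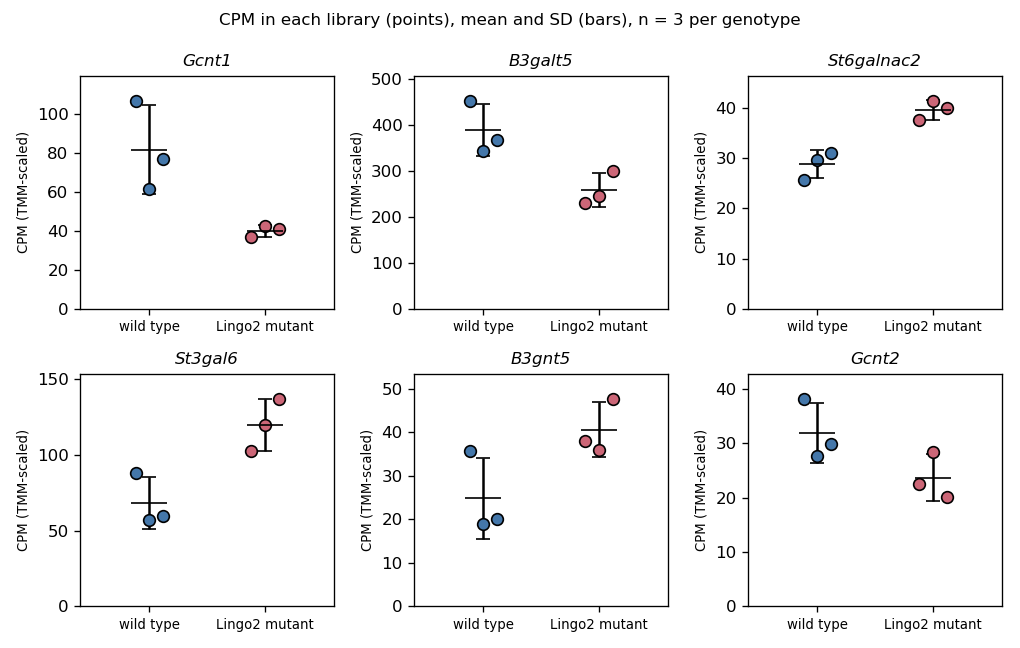
CPM of 6 members in each library (y axis, linear, from 0; points), with the mean and SD of each genotype (bars, n = 3); the members were picked for display after their values were seen. All mutant libraries lie below all wild type libraries for Gcnt1 (at most 42.4 against at least 61.3 CPM) and B3galt5, and above them for St6galnac2, St3gal6 and B3gnt5, while the groups overlap for Gcnt2.

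The starts of Gcnt1 and B3galt5, which fell, and of St3gal6, which had the highest fold change but was not called, are shown. Genes with fitted values of opposite sign can thus be compared. St6galnac2, the member called higher, matched no start entry and is not shown. The sequences run from 250 bases before to 50 after the RefSeq start nearest the annotated 5′ end of each gene (RefSeq, GRCm38.p6), of 3, 3 and 2 RefSeq starts, and 34 of the 45 members matched an entry. The counts do not show which start was used. Capitals mark exact matches, on either strand, to the TATA box TATAAA, the GC box GGGCGG, the HNF1 half-site GTTAAT and the CDX site TTTATG, of which TTTATG overlaps the reverse strand of the TATA box, TTTATA, in all but its last letter.

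Gcnt1, chr19:17372795-17373094, minus strand: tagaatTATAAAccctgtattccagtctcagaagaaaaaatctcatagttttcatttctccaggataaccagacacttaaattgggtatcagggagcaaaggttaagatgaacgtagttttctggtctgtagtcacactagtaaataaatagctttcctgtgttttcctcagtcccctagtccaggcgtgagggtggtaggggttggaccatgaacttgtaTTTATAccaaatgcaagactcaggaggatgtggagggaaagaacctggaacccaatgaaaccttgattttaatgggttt

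B3galt5, chr16:96235551-96235850, plus strand: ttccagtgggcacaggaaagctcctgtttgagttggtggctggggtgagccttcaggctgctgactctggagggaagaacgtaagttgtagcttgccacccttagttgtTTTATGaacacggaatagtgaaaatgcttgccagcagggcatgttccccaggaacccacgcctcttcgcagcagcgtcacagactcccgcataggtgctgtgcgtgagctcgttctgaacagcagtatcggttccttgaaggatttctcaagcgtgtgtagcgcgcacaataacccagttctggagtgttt

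St3gal6, chr16:58524204-58524503, minus strand: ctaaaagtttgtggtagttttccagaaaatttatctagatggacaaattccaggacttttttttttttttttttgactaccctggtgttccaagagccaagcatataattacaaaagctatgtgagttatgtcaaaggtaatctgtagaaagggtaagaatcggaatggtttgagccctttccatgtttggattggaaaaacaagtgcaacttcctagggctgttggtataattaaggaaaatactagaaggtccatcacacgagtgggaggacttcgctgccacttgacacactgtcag

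The Gcnt1 window holds 2 matches to the TATA box, and 13.6% of 32851 RefSeq start windows hold at least 1. The B3galt5 window holds 1 match to the CDX site, which 11.9% of them hold, and the St3gal6 window none of the 4 letter strings. No window holds the GC box (35.7% of all windows) or the HNF1 half-site (7.10%). These matches are letter strings and no measure of binding.

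Core formation held the largest change of any tested member. Gcnt1 (chromosome 19, 17326141 to 17372844, minus strand, GRCm38) adds the branch that turns a core 1 chain into core 2, and is active in leukocytes as well as epithelia. Its level was 107, 61.3 and 77.1 CPM in wild type replicates 1, 2 and 3 and 36.7, 42.4 and 40.7 CPM in mutant replicates 1, 2 and 3. The wild type values were widely spread, the mutant values were close together, and the groups did not overlap. The log2 fold change was −1.03 ± 0.19 (edgeR adjusted p = 0.0369). It ran from −0.80 without wild type replicate 1 to −1.21 without wild type replicate 2, and both kept the call. The call ended without any 1 mutant library (−0.98 to −1.09, edgeR adjusted p = 0.101 to 0.149) or wild type replicate 3 (−1.08, edgeR adjusted p = 0.0536). The lymphocyte markers fell in the same libraries, with a median of −1.73 over the 12 and the T cell gene Cd3e going from 13.6 ± 1.52 to 5.41 ± 0.804 CPM. Within wild type, the 12 summed to the least, 451 CPM, in replicate 1, where Gcnt1 was highest. Absorptive colonocyte markers had a median of −0.29, with none of 14 past the test. Of 8 macrophage and dendritic cell markers 2 fell, Itgax and Tyrobp (list median −0.17, summed level 85.2 to 101 CPM in wild type, against 66.7 to 121 CPM in the mutant). None of 6 fibroblast markers passed, with all 6 below 0 (list median −1.32, summed level 329 to 969 CPM, against 222 to 493 CPM). The part of these cell types in the fall of Gcnt1 was not tested.

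The other core enzymes did not pass. Gcnt3, which makes core 2 and core 4 branches on mucins, had the highest level per length of the core enzymes, 65.9 ± 6.92 CPM per kilobase of exon in wild type. It was at 256, 315 and 279.6 CPM in wild type, against 293, 255 and 234 CPM in mutant replicates 1, 2 and 3, which overlap (−0.12 ± 0.12, edgeR adjusted p = 0.627). Per kilobase, Gcnt3 stood at 3.22, 6.89 and 4.86 times the level of Gcnt1 in the wild type libraries and at 10.7, 8.04 and 7.72 times in the mutant libraries. Every mutant ratio thus lay above every wild type ratio. Gcnt1 was already called and Gcnt3 overlapped, so the ratio restates the fall of Gcnt1 and is no second result. C1galt1 (−0.05 ± 0.10) and its chaperone C1galt1c1 (0.05 ± 0.11) differed by less than their errors. B3gnt6, the core 3 enzyme, was at 13.2 ± 1.64 CPM in wild type, against 16.3 ± 3.87 CPM in the mutant (0.28 ± 0.17, edgeR adjusted p = 0.422). Its ratio to C1galt1 per kilobase was 0.447 ± 0.0768 and 0.566 ± 0.125, with overlapping groups. Gcnt4, a core 2 enzyme of low level, was at 4.63 ± 1.30 and 5.25 ± 0.587 CPM.

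Extension of the chains was led by B3galt5 (chromosome 16, 96235801 to 96319859, plus strand, GRCm38), at 63.2 ± 9.23 CPM per kilobase in wild type. B3galt5 was at 453, 345 and 369 CPM in wild type replicates 1, 2 and 3 and at 231, 246 and 301 CPM in mutant replicates 1, 2 and 3. The highest mutant library lay below the lowest wild type library. The log2 fold change was −0.58 ± 0.14 (edgeR adjusted p = 0.0453), close to the threshold. It was not called once wild type replicate 1 (−0.46, edgeR adjusted p = 0.116), wild type replicate 3 (edgeR adjusted p = 0.0520) or a single mutant library was left out (edgeR adjusted p = 0.0534 to 0.164 for the mutant libraries), nor by limma voom (adjusted p = 0.0651). Absorptive colonocyte markers had a median of −0.29 with none past the test, and their part in the fall of B3galt5 was not tested.

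Gcnt2, which makes the I branches of lactosamine chains, was at 38.3, 27.6 and 29.9 CPM in wild type, against 22.4, 28.5 and 20.1 CPM in mutant libraries. Mutant replicate 2 lay within the wild type range, and the change did not pass (−0.43 ± 0.15, edgeR adjusted p = 0.160). B3gnt5, which starts the lacto-series chains of glycolipids rather than mucins, was at 35.6, 18.8 and 20.1 CPM in wild type, against 38.1, 36.0 and 47.7 CPM in mutant libraries. Its wild type replicate 1 lay beside the mutant values and the other wild type libraries well below it. The log2 fold change was 0.71 ± 0.27 (edgeR adjusted p = 0.240), and without wild type replicate 1 it was 1.05 (edgeR adjusted p = 0.00204). With any other single library left out it was 0.54 to 0.78, and B3gnt5 was not called (edgeR adjusted p = 0.337 to 0.449).

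B3gnt7, an enzyme of long lactosamine and keratan sulfate chains, varied most among libraries of 1 genotype for a member above 2 CPM, at 110.2, 40.9 and 56.3 CPM in wild type, against 101, 48.8 and 74.1 CPM in mutant libraries. Its log2 fold change of 0.12 ± 0.48 has an error larger than itself. The galactosyltransferases B4galt1 (−0.21 ± 0.14) and B4galt4 (−0.002 ± 0.13) and the core 1 extending enzyme B3gnt3 (0.17 ± 0.15) did not pass. B3gnt8, a further lactosamine enzyme, was of very low level, with 31 to 40 reads in each wild type library and 6 to 12 in each of the shallower mutant libraries. Scaled to depth it was at 1.43 ± 0.0935 CPM in wild type, against 0.905 ± 0.546 CPM in the mutant, and the groups overlapped (−0.78 ± 0.40, edgeR adjusted p = 0.321). Exons of Bckdha on the opposite strand cover 18.1% of its exon bases.

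In sialylation 7 of 8 tested members had fitted values above 0 (beside 8403 of all 16757 tested genes), with a median of 0.28. Of the 8 only St6galnac2 was called, and the other members are given by value. St6galnac2 (chromosome 11, 116675303 to 116694868, minus strand, GRCm38) was at 25.7, 29.8 and 31.1 CPM in wild type replicates 1, 2 and 3 and at 37.6, 41.4 and 40.0 CPM in mutant replicates 1, 2 and 3. Both groups were tight and did not overlap (0.46 ± 0.10, edgeR adjusted p = 0.0349). The log2 fold change ranged from 0.38 to 0.49 with each library but wild type replicate 3 left out in turn. The call ended in each of these fits (edgeR adjusted p = 0.0538 to 0.132). The 16 goblet and secretory markers had a median of 0.39, with 5 called higher, 11 not called and 3 below 0 (Tff3, Zg16 and Ccl6). One of the 5, Spdef, a transcription factor of goblet cells, was at 67.5 ± 3.93 CPM in wild type, against 121 ± 13.3 CPM in mutant libraries, and the part of these markers in the rise of St6galnac2 was not tested. Exons of 1810032O08Rik, on the opposite strand, cover 8.58% of its exon bases, and a second gene annotated under the same symbol covers 6.62%.

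St3gal6 (chromosome 16, 58468125 to 58524243, minus strand), which caps lactosamine chains with sialic acid, had the largest positive log2 fold change of the members, 0.81 ± 0.18. It narrowly missed the threshold (edgeR adjusted p = 0.0549). It was at 87.7, 57.2 and 59.5 CPM in wild type, against 102, 119.8 and 137 CPM in mutant replicates 1, 2 and 3. All mutant libraries lay above wild type replicate 1, which itself stood apart from the other wild type libraries. Without wild type replicate 1 the log2 fold change was 1.03 (edgeR adjusted p = 0.00176), and limma voom gave an adjusted p of 0.0175. With any other single library left out the log2 fold change was 0.70 to 0.91, and St3gal6 was not called (edgeR adjusted p = 0.0546 to 0.171). Exons of Dcbld2, on the opposite strand, cover 26.0% of the exon bases of St3gal6, and the strand setting of the counting is not given in the sources used here. Dcbld2 had 336 to 543 reads in the wild type and 231 to 291 in the mutant libraries, beside 1399 to 1909 and 963 to 1489 for St3gal6. These are raw reads, and the wild type libraries were deeper. Scaled to depth, Dcbld2 was higher on average in the mutant, as St3gal6 was, with overlapping groups. The part of the shared exon bases in the St3gal6 values was not tested.

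St6galnac6 and St6galnac4, which add sialic acid to the inner GalNAc of already sialylated chains and of gangliosides, are neighbours on chromosome 2 with 10 bases between them on the same strand. St6galnac6 was at 259, 198 and 233 CPM in wild type, against 284, 264 and 313 CPM in the mutant (0.32 ± 0.12, edgeR adjusted p = 0.180). St6galnac4 was at 21.3, 18.1 and 21.6 CPM and 31.0, 21.3 and 25.2 CPM (0.36 ± 0.14, edgeR adjusted p = 0.181). The groups were apart for St6galnac6 by a small gap and overlapped for St6galnac4. St3gal4, a further lactosamine sialyltransferase, had the highest level of the step at 94.5 ± 18.1 CPM per kilobase in wild type. Its values of 327, 222 and 279.8 CPM in wild type, against 255, 295 and 309.6 CPM in mutant libraries overlapped (0.05 ± 0.14), and its fitted value turned negative when wild type replicate 2 (−0.09) or mutant replicate 3 (−0.01) was left out. St3gal3 (0.23 ± 0.14), St3gal1 of core 1 chains (0.24 ± 0.20) and St6gal1, which acts mostly on N-glycans (−0.07 ± 0.10), did not pass.

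**Figure D2:**
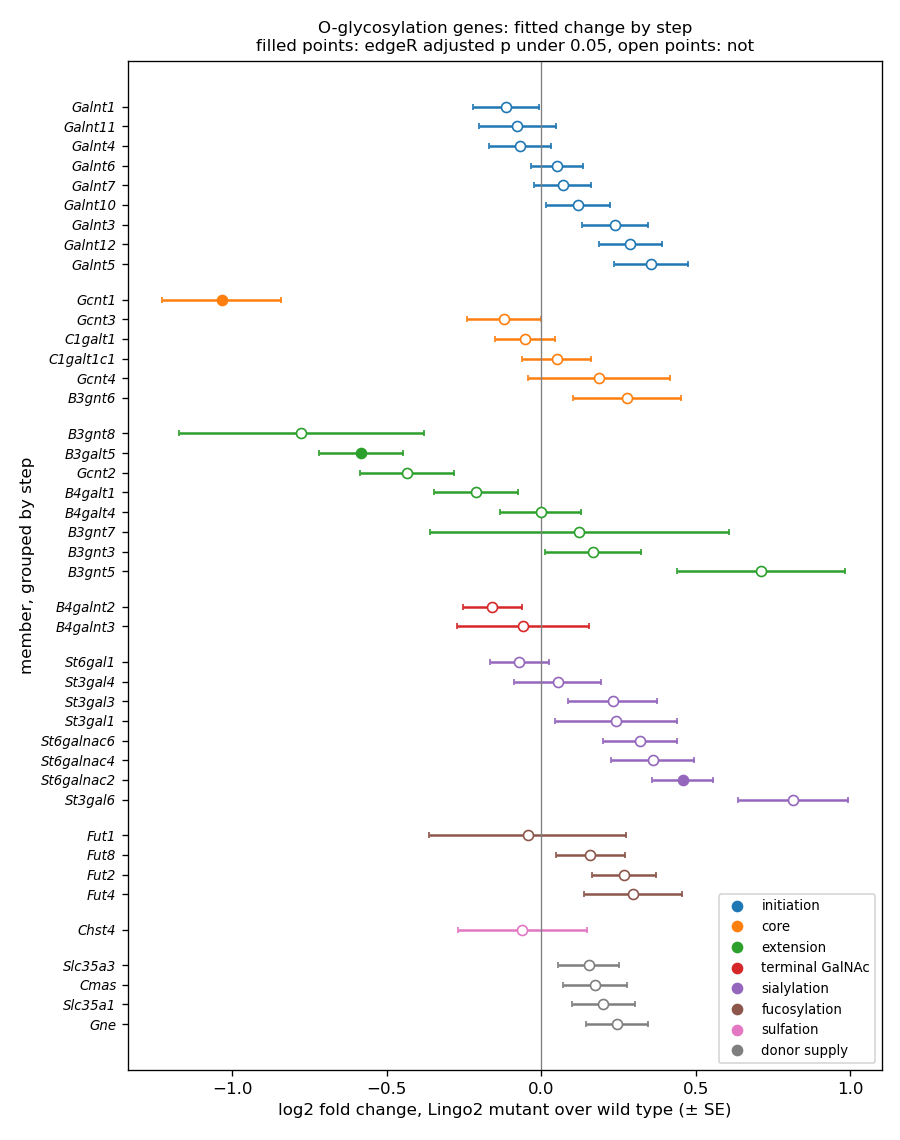
Log2 fold change of mutant over wild type libraries (x axis) with its SE (bars) for the 42 tested members, grouped by step and ordered by value; filled points have an edgeR adjusted p under 0.05. Gcnt1 (−1.03), B3galt5 (−0.58) and St6galnac2 (0.46) are filled, and St3gal6 (0.81) has the highest value and is open.

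None of the 9 tested initiating transferases was called. Their fitted values ran from −0.11 to 0.35 with a median of 0.07. Galnt7, which adds GalNAc beside one already present, led the step in wild type at 26.5 ± 0.714 CPM per kilobase. It was at 144, 137 and 137 CPM in wild type, against 137, 143 and 158 CPM in mutant libraries, which overlap (0.07 ± 0.09, edgeR adjusted p = 0.733). Galnt5 was at 26.2, 27.9 and 23.4 CPM in wild type, against 30.1, 30.5 and 38.8 CPM in mutant libraries, the only member of the step whose groups did not overlap (0.35 ± 0.12, edgeR adjusted p = 0.138). Galnt12, known from the digestive tract, was at 52.0, 57.9 and 49.2 CPM and 57.6, 68.7 and 68.3 CPM (0.29 ± 0.10, edgeR adjusted p = 0.154). Mutant replicate 1 of Galnt12 lay within the wild type range. Galnt3, which also glycosylates the hormone Fgf23, was at 33.5, 33.5 and 29.4 CPM and 33.5, 38.2 and 42.4 CPM (0.24 ± 0.11, edgeR adjusted p = 0.263). Galnt4 (−0.07 ± 0.10), Galnt6 (0.05 ± 0.08), Galnt10 (0.12 ± 0.10), Galnt11 (−0.08 ± 0.13) and Galnt1 (−0.11 ± 0.11) did not pass.

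Galnt2 was listed with 0 to 2 reads in every library and was not tested. Exons of the annotated gene Gm20388, on the same strand, cover 90.0% of the exon bases of Galnt2 in GENCODE M21, and Gm20388 had 0 reads in all 6 libraries. The part of this overlap in the low count was not tested, and no level is given for Galnt2. St6galnac1, the sialyl-Tn enzyme, had 0, 2 and 5 reads in wild type and 4, 4 and 2 in mutant libraries, and Chst5, a GlcNAc sulfotransferase, had 1, 3 and 1 and 1, 0 and 1. No annotated exon of another gene overlaps these 2. Neither was tested, and both lay near the floor, where 3 reads are 0.112 to 0.138 CPM in wild type, against 0.207 to 0.373 CPM in mutant libraries.

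In fucosylation, Fut2, which makes the blood group H structure of secretions, led with 13.5 ± 1.32 CPM per kilobase in wild type. It was at 77.7, 76.9 and 64.9 CPM in wild type, against 87.8, 80.1 and 96.2 CPM in mutant libraries. The groups were apart by a small gap, and the change did not pass (0.27 ± 0.10, edgeR adjusted p = 0.190). Fut1, which makes the same linkage on other chains, had 10 to 34 reads a library, and Fut2 stood at 29.0 to 39.4 times its level per kilobase in wild type, against 33.0 to 54.5 times in mutant libraries. Fut4 (0.30 ± 0.16), of Lewis-type fucose, and Fut8 (0.16 ± 0.11), which fucosylates the core of N-glycans, did not pass.

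The GalNAc and sulfate caps did not differ by the test. B4galnt2, which makes the Sda antigen of colon mucins, had the highest level per length of all members, 101 ± 4.07 CPM per kilobase in wild type. It was at 167, 181 and 173 CPM in wild type, against 165, 141 and 160.0 CPM in mutant libraries, with mutant replicate 1 just under the lowest wild type library (−0.16 ± 0.10, edgeR adjusted p = 0.405). The antisense transcript Gm11534 covers 15.3% of its exon bases. B4galnt3, which makes a GalNAc-GlcNAc ending, stood at 36.3 ± 10.2 and 34.6 ± 3.93 CPM (−0.06 ± 0.21). Per kilobase, B4galnt2 stood at 19.7 ± 1.10 times the level of St6gal1 in wild type and 18.5 ± 1.66 times in mutant libraries. Chst4, a GlcNAc sulfotransferase, was at 46.8, 40.2 and 27.0 CPM and 30.4, 39.8 and 39.5 CPM (−0.06 ± 0.21, edgeR adjusted p = 0.905), and its fitted value turned positive when wild type replicate 1 (0.11) or mutant replicate 1 (0.06) was left out.

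All 4 genes of donor supply had fitted values above 0, from 0.15 to 0.24 (beside 8403 of all 16757 tested genes above 0), and none was called. Gne, the first enzyme of sialic acid synthesis, was at 226, 209.9 and 194 CPM in wild type, against 238, 250.2 and 258 CPM in mutant libraries, with no overlap (0.24 ± 0.10, edgeR adjusted p = 0.214). Slc35a1, the Golgi transporter of CMP-sialic acid, was at 78.3, 83.2 and 73.1 CPM and 84.4, 83.7 and 102 CPM, also just apart (0.20 ± 0.10, edgeR adjusted p = 0.313). Cmas, which activates sialic acid (0.17 ± 0.10), and Slc35a3, the UDP-GlcNAc transporter (0.15 ± 0.10), did not pass. Over all steps, the mutant libraries lay wholly above the wild type libraries in 8 tested members (19.0%, beside 12.3% of all tested genes) and wholly below in 3 (7.14%, beside 11.8%).

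**Figure D3:**
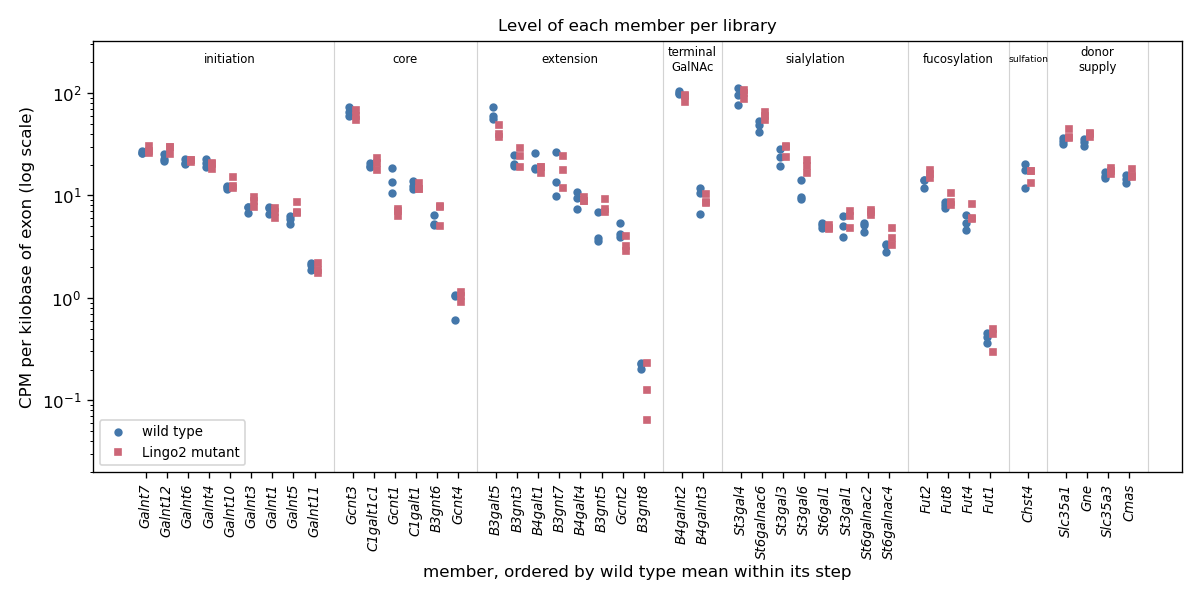
CPM per kilobase of exon (y axis, log scale) of the 42 members in each library, wild type as circles and mutant as squares, by step and ordered by the wild type mean. B4galnt2 (101) and St3gal4 (94.5) lead, and Gcnt4, B3gnt8 and Fut1 lie at about 1 or lower.

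Within the steps, several neighbours in the order of wild type levels had ranges over the wild type libraries that overlapped. Among these were Galnt12, Galnt6 and Galnt4, with means of 23.2, 21.1 and 20.7 CPM per kilobase, Gcnt1 and C1galt1 at 14.2 and 12.6, St6gal1, St3gal1 and St6galnac2 at 5.12, 5.11 and 4.98, and Slc35a1 and Gne at 34.1 and 33.0. Galnt12 stood above Galnt6 and Galnt4 within each single library all the same. The lowest wild type library of Gcnt3, B3galt5, B4galnt2, St3gal4 and Fut2 lay above the highest of the next member of the step. Summed over its members, sialylation held 196 ± 30.2 CPM per kilobase in wild type and 227 ± 19.6 in mutant libraries, and donor supply 97.2 ± 6.36 and 112 ± 8.37. The sum of the core enzymes was 119 ± 4.96 and 108 ± 1.79, and that of the initiating enzymes 126 ± 6.90 and 136 ± 9.07. These sums are descriptions with no test. The mutant libraries lay below all wild type libraries for the core sum (115 to 125 in wild type, against 106 to 110.0 in the mutant) and the terminal GalNAc sum (109 to 112, against 90.7 to 106). They lay above them for donor supply (90.2 to 103, against 107 to 122), and the groups overlapped for sialylation (163 to 223 and 207 to 246). The core sum includes Gcnt1, and for the other 5 core enzymes the groups overlapped. It is therefore no result separate from the fall of Gcnt1.

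**Figure D4:**
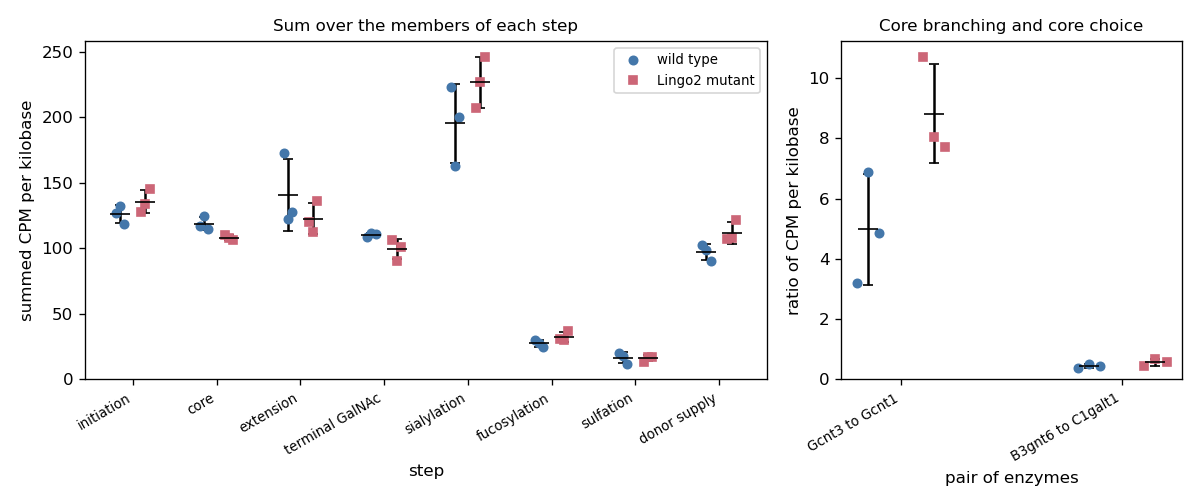
Summed CPM per kilobase of each step (left, y axis) and ratios of CPM per kilobase of 2 enzyme pairs (right) in each library, with mean and SD (bars, n = 3). The ratio of Gcnt3 to Gcnt1 is 3.22 to 6.89 in wild type, against 7.72 to 10.7 in the mutant, and the sialylation sums overlap. That ratio restates the fall of Gcnt1.

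Among 78 further genes of the pathway 60 were tested, with a median log2 fold change of 0.02. Of the 60, 3 fell (5.0%, beside 1.52% of all tested genes) and none rose (beside 1.04%), and the 3 are among 17 tested genes listed as other capping enzymes. Neu1, the lysosomal sialidase that removes sialic acid, fell from 271 ± 24.7 to 193 ± 23.3 CPM (−0.49 ± 0.12, edgeR adjusted p = 0.0478). Gal3st2, which adds sulfate to galactose, fell from 18.6 ± 1.04 to 12.3 ± 2.08 CPM (−0.58 ± 0.13, edgeR adjusted p = 0.0412). St8sia4, a polysialic acid enzyme also expressed in leukocytes, fell from 20.1 ± 3.47 to 13.1 ± 1.57 CPM (−0.62 ± 0.15, edgeR adjusted p = 0.0471). These 3 calls lie close to the threshold, and they were not followed with libraries left out or under other settings. None passed in the lists of other initiating transferases (0 of 4; smallest p for Galnt18, −1.02 ± 0.35), other chain enzymes (0 of 10; B4galt6, −0.20 ± 0.10) and other donor supply (0 of 29; Gfpt2, −1.31 ± 0.34).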

How the data were processed

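Colon epithelial RNA from 3 wild type and 3 Lingo2 mutant libraries was analysed from the deposited tables. The submitters' processing notes name build GRCm38 and list Trimmomatic 0.39 beside STAR, HTSeq and also DESeq2, with no order or settings. The deposited read counts are whole numbers per gene, and 5 summary lines that name no gene were left out. They hold 18.5% to 22.1% in no feature for wild type, against 23.6% to 27.6% for mutant libraries. Alignments that were not unique took 36.5% to 36.9%, against 30.8% to 33.9%, and ambiguous ones 1.23% to 1.57% over all libraries. A table deposited by the authors gives normalized signal per library (the count times 1 factor), a mean signal, log2 fold changes with errors, a test score and p-values. Its adjusted p-values were used where named. Members were matched by symbol in that table (41) or in GENCODE M21 (4).

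Counts were tested over all genes with edgeR 4.0.16 in R 4.3.3 (filterByExpr, TMM factors, robust quasi-likelihood F test on genotype, Benjamini-Hochberg, threshold 0.05). CPM are TMM-scaled, except for the filter at 0.5 CPM. SE is the log2 fold change over the square root of F. CPM per kilobase divides by merged exon length, and floors are 3 reads and cover counting error only. On simulated counts for this comparison over 16757 genes the script recovered 62% of 100 genes changed 2-fold and 92% of 100 changed 4-fold, with 14 false calls. Libraries of 1 genotype differed by more than sampling noise (chi-square per degree of freedom 8.40 to 19.4).

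The members, lists and rules were chosen with earlier results of these data known. Values in every library are given for members with an unadjusted p under 0.05 and for the highest member per kilobase of each step; B3gnt7 and the untested members were added after their values were seen. The ratio of St6galnac1 to St3gal1 was planned and not computed, since St6galnac1 was near 0. Alternatives were other size factors (DESeq2, upper quartile), no filter, 1 CPM in 3 libraries, a replicate block, DESeq2 1.42.0, limma 3.58.1 voom with sample weights, no mitochondrial genes, and each library left out.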

Additional observations from a re-analysis of the deposited data

How the results depend on the processing

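The number of members called higher was 1 and lower 2. It kept these values with DESeq2 or upper quartile factors, a filter at 1 CPM in 3 libraries and without mitochondrial genes. With no filter, where 28829 genes were tested, 2 were higher and 3 lower. DESeq2's Wald test called 3 higher and 2 lower, and limma voom with sample weights 2 higher and 1 lower. With the replicate block 0 were higher and 1 lower (St6galnac2 edgeR adjusted p = 0.0516, B3galt5 0.0823). With single libraries left out in turn, 0 to 2 were higher and 0 to 2 lower. Over all genes 430 were called, and 1493 with no filter, 656 by DESeq2, 674 without wild type replicate 3, 174 without mutant replicate 2 and 180 without mutant replicate 3. Same-numbered libraries did not deviate together (correlations of −0.13, 0.13 and −0.02 across genes), so the numbers were not taken as pairs.

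The log2 fold changes of 19 members were followed under 14 alternatives, 266 values in all. Of these, 238 kept their direction and side of the threshold, 17 lost and 7 gained a call. Direction changed in 4 values, for St3gal4 when wild type replicate 2 (−0.0857) or mutant replicate 3 (−0.0142) was left out, and for Chst4 when wild type replicate 1 (0.11) or mutant replicate 1 (0.0572) was. With single libraries left out St3gal4 ranged from −0.0857 to 0.19 and Chst4 from −0.2581 to 0.11, and neither was called in any of the 14 alternatives. The causes were not tested. The counts of members at an unadjusted p under 0.05 were recomputed under each alternative, a choice made after seeing the data. Few reads limit the precision for Fut1, B3gnt8, St6galnac1 and Chst5.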
